A study of Mus musculus with 8 samples.

Results

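The 45 genes described here are cell-cycle genes whose transcripts mark a cell's place in the division cycle, taken from 32285 genes counted in every library. They were chosen by name, for the step of the cycle at which each acts, with earlier results of these data known, so that their counts below are no independent evidence of a direction. Of the 45 genes, 16 act in DNA replication (Mcm2 to Mcm7, Pcna, Rrm1, Rrm2, Tyms, Tk1, Ccne1, Ccne2, Cdt1, Gins2 and Pclaf) and are called replication genes below. A further 26 act in mitosis and in the preparation for it (Mki67, Top2a, Birc5, Ccnb1, Ccnb2, Ccna2, Cdk1, Cdca3, Cdca8, Spc24, Spc25, Nusap1, Ube2c, Tpx2, Aurka, Aurkb, Bub1, Bub1b, Plk1, Cenpa, Cenpe, Cenpf, Kif11, Kif20a, Hmmr and Cks2) and are called mitotic genes. The remaining 3 are Stmn1, Cks1b and Mybl2. Cells that were CD45+CD11b+Ly6Chi, a gate for monocytic myeloid cells, were taken from the blood and the tumors of mice that carried subcutaneous MC38 tumors, a murine colon carcinoma line. The mice either received no radiation (control) or 1 local tumor dose of 20 Gy (IR), and sampling followed 3 days later. Each of the 4 libraries (blood control, blood IR, tumor control, tumor IR) mixed cells of both genotypes, which were marked with hashtag antibodies before mixing: WT mice had the floxed Ythdf2 alleles without Cre, and cKO mice had Lyz-cre with Ythdf2 fl/fl, so that Cre came from a gene active in myeloid cells as a whole. YTHDF2 is a reader of m6A, a methyl mark on RNA, and directs marked transcripts to decay. Each of the 8 groups was therefore the cells of 1 label in 1 library, from a pool of 5 mice, with no replicate pool. All intervals below are exact 95% intervals that cover counting error only, and no test between groups was possible.

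A dividing cell copies its DNA in S phase and separates the copies in mitosis, with growth phases in between. MCM helicase subunits and their loading factor Cdt1 are put on DNA ahead of S phase, and the enzymes that make deoxynucleotides (Rrm1, Rrm2, Tyms and Tk1) supply it during S phase. Cyclin B with the kinase Cdk1 then drives entry into mitosis, after which ubiquitin ligases clear the cyclins and the cell divides. Transcription follows this order. E2F factors raise the replication genes, and complexes that bind the promoter element called CHR, often beside CCAAT boxes, raise the mitotic genes later. Circulating Ly6Chi monocytes leave the bone marrow as the progeny of dividing precursors and rarely divide in blood, whereas some tissue macrophages proliferate locally.

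The promoters of 5 members are shown because the results below turn on these genes. RefSeq promoter sequences (GRCm38.p6, 250 bases before the gene's start and 50 after it) were matched for 36 of the 45 members. Capitals mark the CHR letters (TTTGAA), the box with the letters CCAAT and the E2F letters (TTTGGCGC or TTTCCCGC), read on both strands. No match overlaps another in the promoters shown, and a match is a description of letters, not a measured site.
Ccnb2: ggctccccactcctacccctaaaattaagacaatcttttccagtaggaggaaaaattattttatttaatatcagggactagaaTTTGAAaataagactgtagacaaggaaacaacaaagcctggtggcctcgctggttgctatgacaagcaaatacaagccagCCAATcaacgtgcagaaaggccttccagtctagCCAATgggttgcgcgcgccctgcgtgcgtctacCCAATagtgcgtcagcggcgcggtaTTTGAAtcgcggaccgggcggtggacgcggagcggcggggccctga
Top2a: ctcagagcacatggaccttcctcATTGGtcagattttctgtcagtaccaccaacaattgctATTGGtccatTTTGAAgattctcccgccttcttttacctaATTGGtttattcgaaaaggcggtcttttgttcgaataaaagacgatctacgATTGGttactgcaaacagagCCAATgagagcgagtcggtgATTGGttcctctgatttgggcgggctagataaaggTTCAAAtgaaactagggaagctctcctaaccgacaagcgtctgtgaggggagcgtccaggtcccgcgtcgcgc
Mki67: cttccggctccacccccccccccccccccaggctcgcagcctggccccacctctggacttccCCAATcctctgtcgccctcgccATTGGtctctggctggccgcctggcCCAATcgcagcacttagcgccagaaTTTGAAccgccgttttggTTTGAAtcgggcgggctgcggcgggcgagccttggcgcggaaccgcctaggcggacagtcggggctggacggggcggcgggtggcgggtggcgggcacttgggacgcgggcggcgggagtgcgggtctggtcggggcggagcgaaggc
Birc5: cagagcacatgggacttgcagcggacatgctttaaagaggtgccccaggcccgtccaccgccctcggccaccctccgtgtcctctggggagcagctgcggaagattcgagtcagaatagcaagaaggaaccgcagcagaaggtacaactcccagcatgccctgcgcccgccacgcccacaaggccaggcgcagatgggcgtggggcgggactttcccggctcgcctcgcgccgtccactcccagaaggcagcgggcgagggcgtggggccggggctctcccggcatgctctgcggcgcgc
Mcm5: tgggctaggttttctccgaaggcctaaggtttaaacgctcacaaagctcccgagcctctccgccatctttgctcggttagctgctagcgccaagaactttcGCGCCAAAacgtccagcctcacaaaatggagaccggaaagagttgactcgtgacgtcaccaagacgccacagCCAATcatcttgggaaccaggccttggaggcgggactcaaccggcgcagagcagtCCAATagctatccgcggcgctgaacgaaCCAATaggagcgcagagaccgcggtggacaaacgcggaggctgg
Ccnb2 (chr9:70421505-70421804, minus strand), Top2a (chr11:99024140-99024439, minus strand) and Mki67 (chr7:135716330-135716629, minus strand) each held 2 CHR strings. Mcm5 (chr8:75109259-75109558, plus strand) held 1 E2F string and no CHR string, and Birc5 (chr11:117848987-117849286, plus strand) held none of the 3 strings, which says only that these letters are not in this window. The CHR string was present in 15 of 21 mitotic promoters (71.4%), in 1 of 13 replication promoters and in 17.9% of all 32851 mouse promoters of the same length. An E2F string was present in 6 of 13 replication promoters (46.2%), in 0 of 21 mitotic promoters and in 1.56% of all promoters. CCAAT was present in 19 of 21 mitotic promoters, in 9 of 13 replication promoters and in 37.4% of all.

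Across the series, 26505 cells were kept, 2139 to 4407 per group, with 18492823 to 24828497 gene UMIs (counted transcript molecules) per group. Median UMIs per cell were 2935 to 3373 in the blood groups and 6016 to 8550 in the tumor groups, so shares of cells are given after every cell was thinned to 1500 UMIs, which 91.9 to 99.4% of the cells of a group had and the others, left out, did not. Levels are given in counts-per-million units (CPM), the UMIs of a gene or set scaled to all gene UMIs of its group, which cannot tell fewer cycling cells from less RNA per cycling cell. Ythdf2 itself was at 33.6 to 56.2 CPM in cells labelled WT and at 305 to 370 CPM in cells labelled cKO, against the label in all 4 libraries, whereas Lyz2, at whose locus Lyz-cre sits, was at 5604 to 14317 CPM in cells labelled WT and 83.4 to 138 CPM in cells labelled cKO. Where the Ythdf2 reads lie relative to the deleted part is not given in the sources used here, so every direction below rests on the labels. The sort gate did not leave 1 cell type: neutrophil-like cells made up 5218 of 7993 kept cells in blood control and 4827 of 7014 in blood IR, and a fibroblast-like cluster (cluster 13, with Sparc, Col3a1 and Dcn, and Ptprc, the gene of CD45, at 5.91 CPM) was present in the tumor groups. The tumor libraries shared 12558 barcodes with at least 500 UMIs, of which 32 were kept in both, and 6959 and 4658 barcodes of tumor control and tumor IR had too few hashtag UMIs to be labelled, against 5 in each blood library.

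The values of 6 members show the pattern of the groups, each given for cells labelled WT before cells labelled cKO. Mki67 (chromosome 7, ENSMUSG00000031004), which encodes the antigen Ki-67 of cycling cells, was at 2.61 and 3.62 CPM in the blood of control mice and 7.40 and 11.3 CPM after IR, and in the tumor at 52.0 and 107 CPM without IR and 31.6 and 16 CPM with it. Top2a, the topoisomerase that untangles sister chromatids, was at 2.32 and 1.92 CPM in the blood of control mice and 3.73 and 2.43 CPM after IR, and in the tumor at 64.3 and 121 CPM without IR and 52.7 and 23.0 CPM with it. Ccnb1, which encodes cyclin B1, was at 0.474 and 0.426 CPM in the blood of control mice and 1.47 and 1.41 CPM after IR, and in the tumor at 7.84 and 21.6 CPM without IR and 13.6 and 5.92 CPM with it. These 3 mitotic genes were highest in tumor control cells labelled cKO, and after IR in the tumor they were higher in cells labelled WT. Of the replication genes, Mcm5, a subunit of the helicase, was at 4.08 and 4.90 CPM in the blood of control mice and 7.17 and 6.06 CPM after IR, and in the tumor at 25 and 51.4 CPM without IR and 11.9 and 11.6 CPM with it. Rrm2 was at 0.616 and 1.54 CPM in the blood of control mice and 1.38 and 0.541 CPM after IR, and in the tumor at 19.9 and 39.9 CPM without IR and 9.56 and 5.16 CPM with it. Pcna was at 51.2 and 51.2 CPM in the blood of control mice and 51.6 and 47.9 CPM after IR, and in the tumor at 139 and 176 CPM without IR and 92.3 and 90.9 CPM with it. Mcm5 and Rrm2 followed the same order in tumor control. In blood the Rrm2 values lay in opposite directions in the labels, but on under 100 UMIs over both groups in every comparison, too few to read a direction. The intervals of Mcm5 in blood overlapped in cells labelled cKO. Pcna was nearly even across the 4 blood groups.

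**Figure D1:**
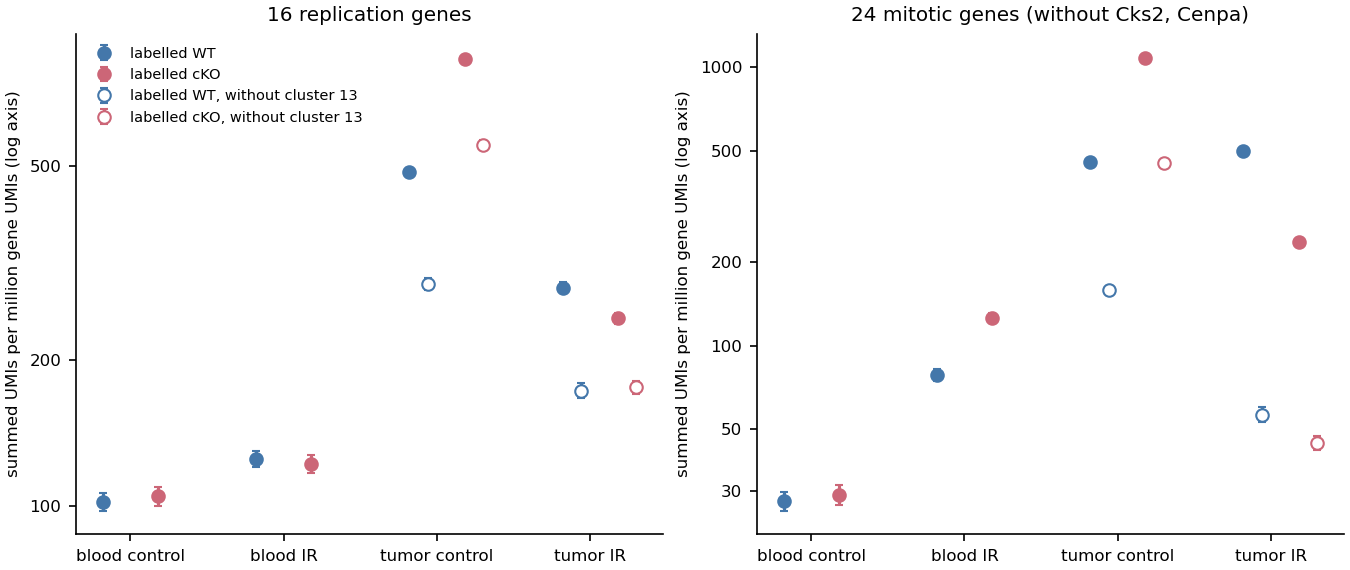
Summed level of the 16 replication genes (left) and of 24 mitotic genes, without Cks2 and Cenpa (right), in CPM on a log axis, with exact 95% intervals; filled points are all kept cells and open points leave out the fibroblast-like cluster 13. The mitotic sum stood at 27.5 and 29.0 in blood control and at 457 and 1081 in tumor control, and without cluster 13 both tumor IR groups lay under both tumor control groups.

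Summed over the 16 replication genes, blood control held 101.7 CPM in cells labelled WT and 104.7 CPM in cells labelled cKO, and blood IR held 125.1 and 122.0 CPM. The 4 blood sums lay within a narrow band. In tumor the replication sum was 486 and 830 CPM in control and 281 and 243 CPM after IR, with the cells labelled cKO highest in control and lowest after IR. For the mitotic genes, 2 members did not follow the others. Cks2, which encodes a subunit that binds cyclin-dependent kinases, was at 192, 112, 161 and 124 CPM in the 4 blood groups, and over all libraries it was at 350 CPM in the neutrophil-like cluster 0 and at 70.6 CPM in the classical monocyte-like cluster 3. Mki67 had the other order, at 1.36 and 13.4 CPM. Cenpa, the centromeric histone, was at 26.9 and 29.4 CPM in these clusters. Both genes thus had transcripts in cells with few other mitotic transcripts, so sums over the other 24 mitotic genes are given beside sums over 26 (a choice made after seeing the data). Pcna, the sliding clamp of replication that also serves DNA repair, was at 21.5 CPM in cluster 0 and 65.8 CPM in cluster 3, whereas Mcm5 was at 0.08 and 8.95 CPM, and per-cell calls of replication use the other 15 genes.

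Cell clusters, built without the members and a wider list of 110 cell-cycle genes, differed widely in these transcripts. The neutrophil-like clusters 0 and 1 held 8.67 and 7.30 CPM of the 24 mitotic genes. The classical monocyte-like cluster 3 held 138 CPM, the macrophage-like cluster 11 held 1003 CPM, the T cell-like cluster 17 held 831 CPM and the fibroblast-like cluster 13 held 2754 CPM. The sets did not keep 1 ratio across clusters. In the NK cell-like cluster 10 the 15 replication genes summed to 303 CPM and the 24 mitotic genes to 66.8 CPM, or 4.53 replication UMIs per mitotic UMI. On few UMIs, this ratio was 5.25 in the neutrophil-like cluster 15 (4 mitotic UMIs) and 4.5 in the B cell-like cluster 20 (10 mitotic UMIs), the basophil or mast cell-like cluster 21 had 10 replication UMIs and 0 mitotic UMIs, and in cluster 19 the ratio was 0.238. Among cells thinned to 1500 UMIs, 45 of 725 NK cell-like cells (6.21%, 95% Clopper-Pearson interval 4.56 to 8.22%) had at least 2 UMIs of the 15 replication genes and 5 (0.690%, 0.224 to 1.60%) had at least 2 of the 24 mitotic genes. In the macrophage-like cluster 11 these shares were 19.9% (17 to 23.0%) and 19.2% (16.4 to 22.3%), nearly equal. These 2 clusters thus differed in how much mitotic RNA stood beside the replication RNA, at median depths of 2966 and 10009 UMIs before thinning.

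**Figure D2:**
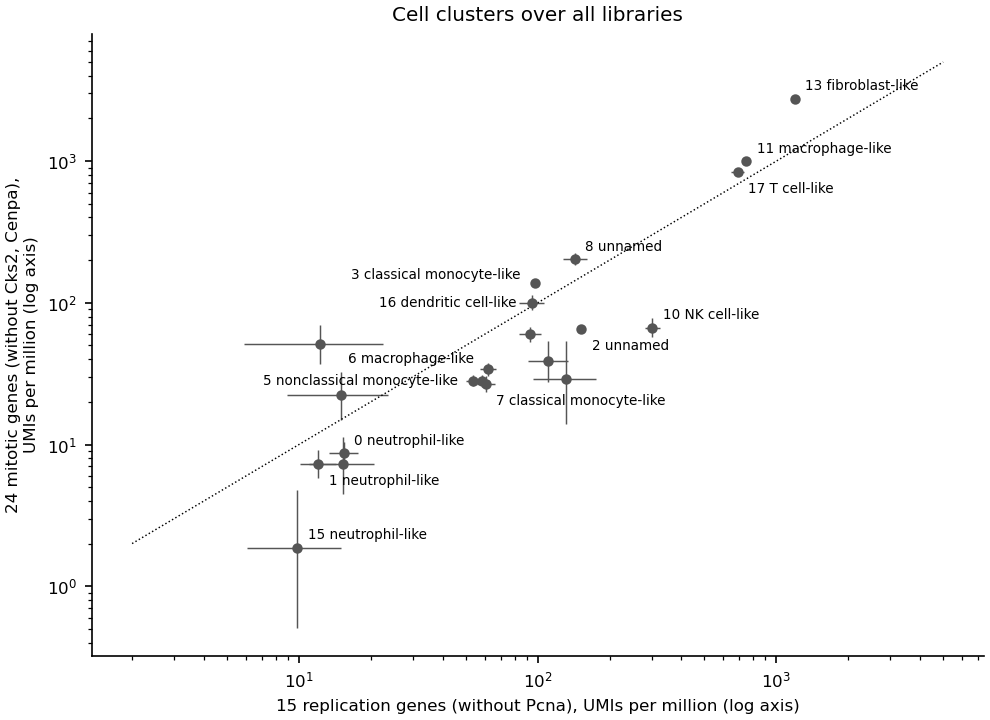
Level of the 15 replication genes without Pcna (horizontal) and of the 24 mitotic genes without Cks2 and Cenpa (vertical) in each cell cluster of at least 20 cells over all 4 libraries, in CPM on log axes with exact 95% intervals; the dotted line marks equal sums. Fibroblast-like, macrophage-like (cluster 11) and T cell-like clusters lie at the upper right, neutrophil-like clusters 0, 1 and 15 at the lower left, and the NK cell-like cluster lies well under the line.

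The share of cells with at least 2 mitotic UMIs describes the same groups cell by cell, and did not always keep the order of the sums. In cells labelled WT, tumor IR lay above tumor control by the sum of the 24 mitotic genes (502 and 457 CPM) and below it by share. After thinning, 0.255% (0.127 to 0.455%) of cells labelled WT and 0.199% (0.080 to 0.410%) of cells labelled cKO passed for the 24 mitotic genes in blood control, and 0.734% (0.488 to 1.06%) and 1.43% (1.04 to 1.91%) passed in blood IR. In tumor control 3.02% (2.37 to 3.8%) of cells labelled WT and 11.98% (10.6 to 13.5%) of cells labelled cKO passed. In tumor IR 1.65% (1.21 to 2.19%) and 1.06% (0.750 to 1.46%) passed. The tumor control cells labelled cKO stood far above every other group. For the 15 replication genes the blood shares were 0.371% and 0.426% without IR and 0.708% and 0.635% with it, and the tumor shares were 4.51% and 12.46% without and 1.16% and 1.70% with it, labelled WT before labelled cKO. Without thinning, the mitotic shares were 2.27%, 1.95%, 6.37%, 9.44%, 8.97%, 26.2%, 4.54% and 4.23% in the order of blood before tumor, control before IR and WT before cKO, and the replication shares were 4.70%, 4.55%, 8.35%, 9.44%, 16.9%, 35.4%, 9.99% and 11%. As a background for the blood shares, neutrophil-like cells, mature neutrophils being cells that no longer divide, passed in 7 of 9970 cells for the mitotic genes (0.070%) and in 6 for the replication genes (0.060%), at a median of 2679 UMIs before thinning. These include 93 cells of cluster 19, with Camp, Ltf and Ngp, genes of maturing neutrophils, which held 51.6 CPM of the 24 mitotic genes and of which 1 passed. The tumor libraries held too few neutrophil-like cells for such a background. Barcodes too small to be cells held the 24 mitotic genes at 41.6 CPM in blood control, 104 CPM in blood IR, 453 CPM in tumor control and 271 CPM in the tumor IR library, and the 15 replication genes at 65.4, 55.7, 358 and 167 CPM in that order. The part of such free RNA in the shares was not tested. Over all 26 mitotic genes, Cks2 and Cenpa included, the thinned shares were 10.4% and 5.32% in control blood, 10.2% and 8.83% in blood after IR, 6% and 14.7% in control tumor and 4.14% and 3.19% in tumor after IR, so that 3 of the 4 blood groups stood above tumor control cells labelled WT. Among thinned cells that passed for the 24 mitotic genes in tumor control, 42 of 71 labelled WT and 129 of 246 labelled cKO also passed for replication, whereas in blood IR 3 of 28 and 2 of 45 did.

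The first comparison asked whether IR of the tumor changed cell-cycle transcripts in the blood. In cells labelled WT, 9 of 23 measured members (at least 100 UMIs over both groups) were higher in IR by a log2 ratio of at least 1, where 0.349% of all 9750 measured genes were, and 0 were lower, where 0.923% of all genes were. In cells labelled cKO, 10 of 21 measured members were higher, where 0.422% of 9472 genes were, and 0 were lower against 0.992% of genes. Below, a member is said to have risen or fallen only when it passed this limit of 1. The minimum of 100 UMIs was set on both groups together. A member with few UMIs in control was therefore measured only if it had many after IR. Members low in both groups are left out, 22 of 45 in cells labelled WT and 24 in cells labelled cKO. Among members with few control UMIs, the counts above thus lean toward rises. The members that rose were 6 mitotic genes and 1 replication gene in cells labelled WT and 7 and 1 in cells labelled cKO, together with Stmn1 and Cks1b in both.

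Ccnb2, which encodes a B-type cyclin, rose from 22 to 305 UMIs (1.04 to 14.0 CPM) in cells labelled WT, a log2 ratio of 3.69 (3.12 to 4.44). In cells labelled cKO it rose from 27 to 443 UMIs (1.44 to 24 CPM), a log2 ratio of 4.01 (3.5 to 4.68). Both IR groups stood far above both control groups. Spc24, a kinetochore subunit, rose from 6 to 98 UMIs (log2 ratio 3.78, 2.81 to 5.47) in cells labelled WT and from 24 to 126 UMIs (2.37, 1.78 to 3.11) in cells labelled cKO. Birc5, the survivin subunit of the chromosomal passenger complex, rose from 11 to 200 UMIs (4.09, 3.34 to 5.23) in cells labelled cKO, while in cells labelled WT it had 4 and 95 UMIs (4.22, 3.12 to 6.43), just too few to count as measured. Cdca3, which helps to trigger mitotic entry, rose in both labels, with log2 ratios of 2.06 (1.48 to 2.77) and 2.83 (2.32 to 3.46). Ube2c, the ubiquitin-conjugating enzyme that works with the anaphase-promoting complex, rose by 1.78 (1.45 to 2.14) and 2.58 (2.24 to 2.97). These 5 genes act from mitotic entry to chromosome segregation. Cdca8, another passenger subunit, rose by 1.66 (1.01 to 2.44) in cells labelled WT.

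Among the measured replication genes, only Pclaf, a PCNA-binding protein, rose, from 13 to 167 UMIs (log2 ratio 3.54, 2.83 to 4.58) in cells labelled WT and from 71 to 222 UMIs (1.65, 1.27 to 2.07) in cells labelled cKO. The next largest log2 ratios in cells labelled WT were 0.81 for Mcm5, 0.56 for Mcm6, 0.55 for Cdt1 and 0.36 for Mcm3. In cells labelled cKO they were 0.45 for Cdt1, 0.34 for Mcm3, 0.30 for Mcm5 and 0.25 for Mcm4. Over all blood cells those helicase subunits that were measured, and their loader, thus stayed under the limit in both labels. The 16 replication genes summed to a log2 ratio of 0.30 (0.22 to 0.38) and 0.22 (0.13 to 0.31), beside medians over all genes of 0.03 and 0.07, while the 24 mitotic genes summed to 1.51 (1.37 to 1.65) and 2.11 (1.98 to 2.25). With Cks2 and Cenpa included, the mitotic sums were 0.12 (0.07 to 0.18) and 0.81 (0.74 to 0.87). Stmn1, which destabilises microtubules, rose from 5.50 to 21.4 CPM and from 8.47 to 33.8 CPM, and Cks1b, a kinase-binding subunit, rose from 4.98 to 11.5 CPM and from 5.81 to 16.2 CPM.

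**Figure D3:**
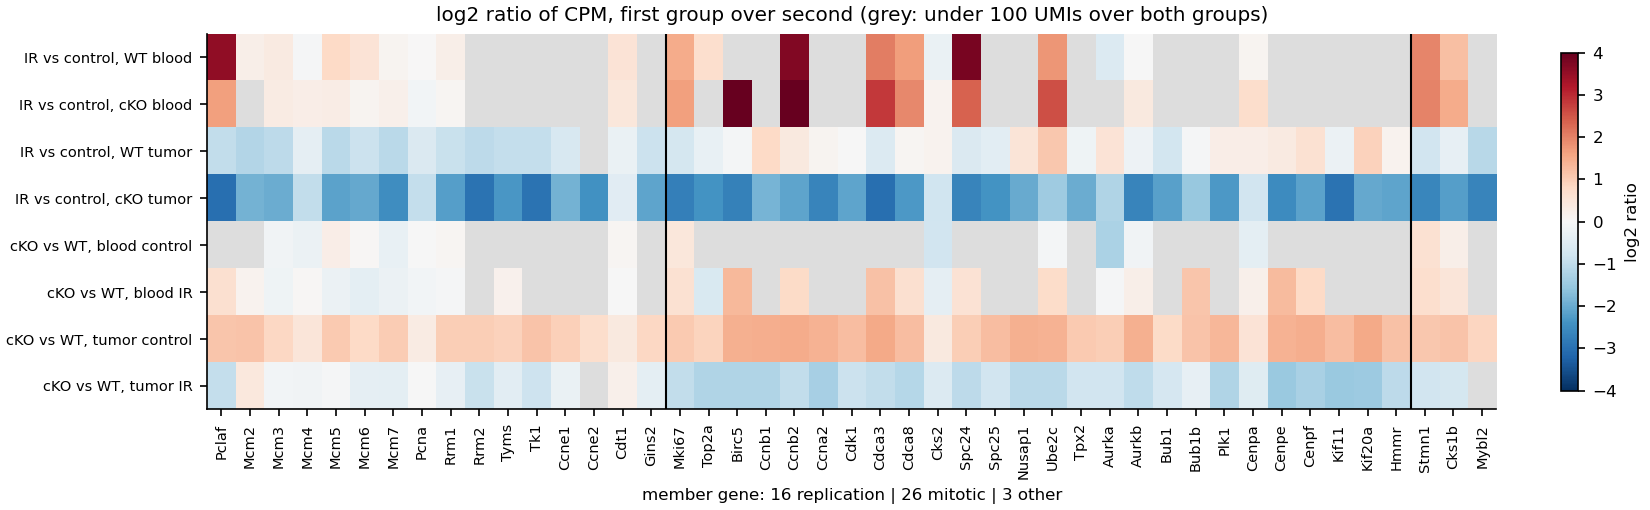
Log2 ratio of CPM for each of the 45 members (columns, by set) in each of the 8 comparisons (rows); grey cells had under 100 UMIs over both groups. Ccnb2, Spc24, Cdca3 and Ube2c stand out in both blood IR rows while the measured Mcm genes lie below 1. In the row for IR in tumor cells labelled cKO, 40 of 45 members are at or below -1.

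The rise in blood lay mostly in the classical monocyte-like cluster 3, which held 605 and 467 cells in control and 676 and 588 cells after IR, labelled WT before labelled cKO. This cluster held 48.7% and 47.2% of all UMIs of the 24 mitotic genes in blood control and 71.9% and 87.9% in blood IR. Within it these genes went from 44.3 to 142 CPM in cells labelled WT (log2 ratio 1.68, 1.5 to 1.87) and from 53.7 to 258 CPM in cells labelled cKO (2.26, 2.08 to 2.46). The replication genes went from 122 to 173 CPM (0.50, 0.38 to 0.63) and from 143 to 190 CPM (0.41, 0.28 to 0.54). Within this cluster, 7 of 11 mitotic genes with at least 50 UMIs rose in cells labelled WT and 11 of 13 in cells labelled cKO, as against 3 of 10 replication genes and 2 of 10, where 0.734% of 8990 genes and 0.565% of 8847 genes did. Here too the minimum was set on both groups together, so genes with few UMIs in control were counted only if they had many after IR. The replication genes that rose were Pclaf in both labels, Mcm5 (from 23 to 96 UMIs, 1.59, 0.96 to 2.35) and Mcm6 (from 35 to 104 UMIs, 1.12, 0.57 to 1.73) in cells labelled WT and Tyms (1.65) in cells labelled cKO. In cells labelled cKO, Mcm5 was at 0.66 (0.08 to 1.3) and Mcm6 at -0.01 (-0.56 to 0.56) there. Mcm2 had too few UMIs in the cluster to count as measured. It went from 7 to 36 UMIs (1.10 to 4.17 CPM) in cells labelled WT and from 9 to 38 UMIs (1.88 to 4.81 CPM) in cells labelled cKO. Ccnb2 rose from 12 to 268 UMIs (1.88 to 31.1 CPM) and from 21 to 408 UMIs (4.39 to 51.6 CPM). Stmn1 rose from 4.38 to 38.4 CPM and from 13 to 73.9 CPM, and Birc5 rose from 4 to 188 UMIs in cells labelled cKO. Mki67, the nuclear antigen of cycling cells, rose from 5.01 to 12.4 CPM and from 7.73 to 24.4 CPM. The sum was uneven over the 24 genes. After IR, Ccnb2 and Ube2c held 268 and 251 of its 1228 UMIs in cells labelled WT. In cells labelled cKO they held 408 and 389 of 2041. Cdk1, Nusap1 and Kif11 had only 7, 7 and 7 UMIs after IR in cells labelled WT and 7, 6 and 7 in cells labelled cKO. Aurkb did not rise, at 11.4 and 8.23 CPM in cells labelled WT and 9.82 and 10.9 CPM in cells labelled cKO. Pcna was nearly level, at 64.2 and 63.9 CPM in control and 67.2 and 65.0 CPM after IR.

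The mitotic UMIs of cluster 3 were thinly spread. Before thinning, at least 1 UMI of the 24 mitotic genes was present in 32.2% and 29.3% of its cells in control and in 55.0% and 65.6% after IR. At 1500 UMIs per cell, at least 2 such UMIs were present in 2 of 605 cells labelled WT and 3 of 467 cells labelled cKO in control, and in 19 of 676 (2.81%, 1.70 to 4.35%) and 40 of 588 (6.80%, 4.90 to 9.15%) after IR. Without thinning these shares were 8.43% and 9.42% in control and 28.7% and 43.0% after IR, at median depths of 10386, 10100, 12438 and 13100 UMIs. Of those cells after IR, 0 of 19 and 2 of 40 also had at least 2 replication UMIs. The 10 cells with most mitotic UMIs held 23.9% and 20.7% of them after IR. Transcripts of 4 granule genes in cluster 3 did not move as 1 group. Elane was at 1.88 CPM in control and 6.61 CPM after IR in cells labelled WT, and at 5.85 and 9.74 CPM in cells labelled cKO. Prtn3 was at 35.7 and 73.2 CPM and at 75.8 and 110 CPM. Mpo, on 2 to 9 UMIs per group, was at 0.470 and 0.579 CPM and at 0.418 and 1.14 CPM. Camp, on 1 to 5 UMIs per group, was lower after IR, at 0.626 and 0.232 CPM and at 1.04 and 0.127 CPM. Their part in the mitotic values was not tested.

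**Figure D4:**
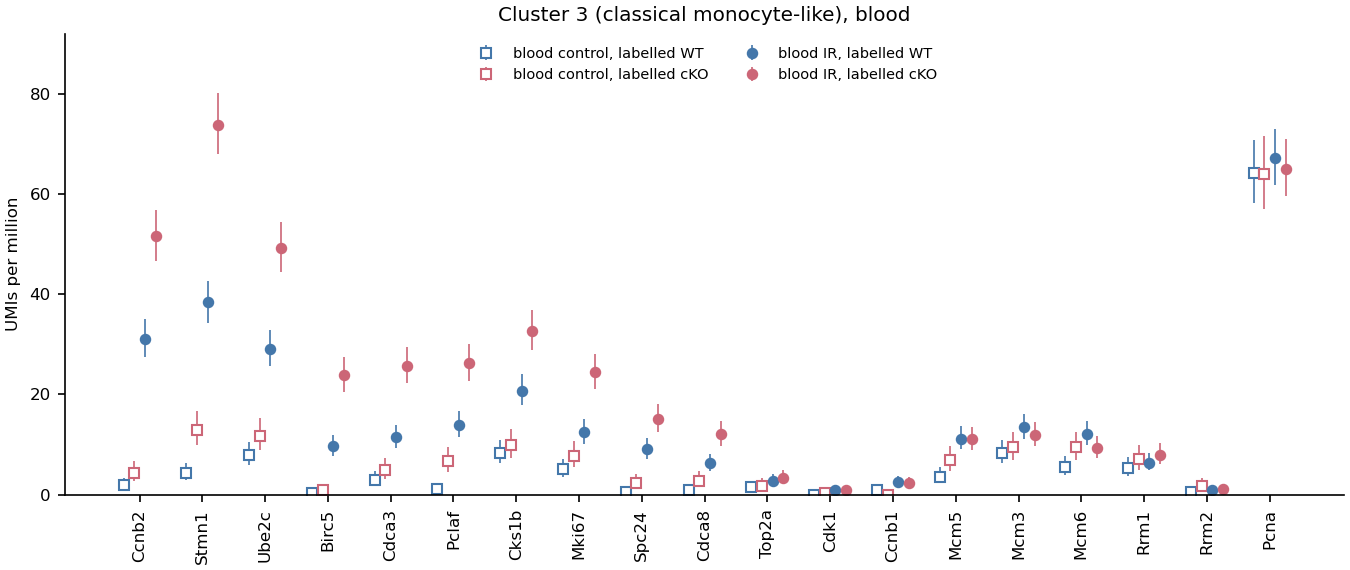
Levels of 19 members in the classical monocyte-like cluster 3 of blood, in CPM with exact 95% intervals; open squares are control, filled circles are IR, blue is labelled WT and red is labelled cKO. From Ccnb2 to Cdca8 the filled circles lie above the open squares, whereas Pcna lies between 63.9 and 67.2 in all 4 groups.

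Between the labels, blood control showed little. Of 16 measured members 0 were higher in cells labelled cKO, where 0.707% of 9615 genes were, and 1 was lower, where 1.56% of genes were. That member was Aurka, the centrosomal mitotic kinase, with 30 and 83 UMIs (1.60 and 3.94 CPM, log2 ratio -1.27, -1.95 to -0.68). The other mitotic values were -0.77 for Cks2, 0.47 for Mki67, -0.38 for Cenpa and -0.14 for Aurkb. The replication values were -0.30 for Mcm7, 0.26 for Mcm5, -0.23 for Mcm4, -0.14 for Mcm3 and 0.09 for Rrm1, and the interval of each of these 5 included 0. In blood IR 4 of 28 measured members were higher in cells labelled cKO, where 0.146% of 9612 genes were, and 0 were lower against 0.52% of genes. These were Birc5 (log2 ratio 1.3, 0.95 to 1.68), Cdca3 (1.18, 0.86 to 1.53) and the spindle checkpoint and motor genes Bub1b (1.12, 0.54 to 1.78) and Cenpe (1.27, 0.68 to 1.94). Cenpf, a kinetochore protein, followed at 0.78 (0.22 to 1.38). The replication genes lay on both sides of 0, at 0.64 for Pclaf, -0.41 for Mcm6, -0.24 for Mcm5, -0.22 for Mcm7 and 0.18 for Tyms. The 24 mitotic genes summed to a log2 ratio of 0.68 (0.59 to 0.77) in blood IR and 0.08 (-0.10 to 0.25) in blood control, and the replication genes to -0.04 (-0.12 to 0.05) and 0.04 (-0.05 to 0.13).

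In the tumor, IR was followed by lower replication transcripts in both labels, while the mitotic sums over all kept cells differed between the labels. In cells labelled WT, 6 of 44 measured members fell, where 3.2% of 10155 genes did, and 1 rose, where 2.56% did. The members that fell included 5 replication genes: Mcm2 (-1.17, -1.51 to -0.85), Mcm7 (-1.08, -1.33 to -0.85), Mcm5 (-1.07, -1.3 to -0.85) and Mcm3 (-1.03, -1.22 to -0.85), which encode helicase subunits, and Rrm2 (-1.06, -1.32 to -0.81), the small subunit of ribonucleotide reductase. The sixth was Mybl2, a transcription factor of the mitotic program, from 4.42 to 2.02 CPM (-1.11, -1.70 to -0.58). The member that rose was Ube2c, from 45.9 to 96.6 CPM (1.07, 0.96 to 1.19). Kif20a, a kinesin of cytokinesis, was at 0.92 (0.52 to 1.35), Ccnb1 at 0.79 (0.50 to 1.08), Bub1 at -0.74 (-1.10 to -0.39) and Mki67 at -0.72 (-0.86 to -0.58). The mitotic genes thus stood on both sides of 0, 14 of 26 above it, while all 15 measured replication genes lay below it. The sums were -0.79 (-0.84 to -0.74) for replication and 0.14 (0.10 to 0.18) for the 24 mitotic genes, beside a median over all genes of -0.13. Few cells carried this mitotic sum: 10 cells held 39.1% of 9204 UMIs in control and 46.7% of 10188 after IR. By share of cells the 24 mitotic genes were lower after IR in both labels, from 3.02% to 1.65% in cells labelled WT and from 11.98% to 1.06% in cells labelled cKO. Without the fibroblast-like cluster 13 the value in cells labelled WT was -1.48.

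In tumor cells labelled cKO, 40 of 45 members fell, where 16.8% of 10690 genes did, and 0 rose, where 5.17% did. The largest falls among replication genes were in Pclaf (from 105 to 12.8 CPM, log2 ratio -3.03), Tk1 (-2.94), Rrm2 (-2.94), Mcm7 (-2.50) and Ccne2 (-2.43), the last a cyclin of S phase entry. Among mitotic genes they were in Cdca3 (from 38.6 to 4.71 CPM, -3.02), the spindle motor Kif11 (-2.95), Mki67 (-2.73), Birc5 (-2.71) and the passenger kinase Aurkb (-2.65). Replication and mitotic genes fell together here. The sums fell by 1.77 (interval of the log2 ratio -1.81 to -1.73) for replication and by 2.20 (-2.24 to -2.16) for the 24 mitotic genes, beside a median over all genes of -0.18. With the share of each cluster held at that of control, the replication sum stood at -0.50 and the 24 mitotic genes at 0.04 in cells labelled cKO, and at -0.26 and 0.99 in cells labelled WT. In cells labelled cKO both values then lay nearer to 0, and in cells labelled WT the mitotic value lay further from it. The mitotic value of 0.04 joins clusters that went in opposite directions, higher in cluster 13 and lower in clusters 11 and 2, as given below. It thus does not mean that the clusters were unchanged. Cluster 13 had 46 cells labelled cKO after IR, and 10 of them held 86.1% of its mitotic UMIs. With cluster 13 left out and no mix held, the mitotic value in cells labelled cKO was -3.34. Stmn1 fell from 282 to 46.3 CPM and Mybl2 from 7.98 to 1.25 CPM.

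The fibroblast-like cluster 13 carried most mitotic transcripts of every tumor group, although the sort gate selected CD45+ cells. It had 116 and 251 cells in control and 81 and 46 after IR, and it held 71.3%, 70.9%, 89.9% and 82.0% of the UMIs of the 24 mitotic genes in the same order. Over all cells of a group, fibroblast markers summed to 737, 1235, 426 and 214 CPM in these groups and to at most 0.96 CPM in any blood group. Carcinoma markers summed to 35.5 to 56.0 CPM in the tumor groups, again over all cells. That list includes Cdh1, a leading gene of cluster 2, so this sum does not describe cluster 13. The cluster was named from marker genes only. Whether it holds stromal cells, MC38 carcinoma cells or doublets was not tested. MC38 cells were an injected line, for which a label names only the mouse that carried the tumor. Whether any cells of this cluster carried the Ythdf2 deletion was not tested either. Values between the labels over all tumor cells include this cluster. The values below leave the cluster out. Without it, 20 of 32 measured members fell in cells labelled WT after IR (2.98% of genes fell) and 0 rose (2.62%), and 37 of 42 fell in cells labelled cKO (6.26%) and 0 rose (3.94%). The sums of the 24 mitotic genes were then 158 CPM in control and 56.4 CPM after IR in cells labelled WT (-1.48), and 453 and 44.7 CPM in cells labelled cKO (-3.34). Leaving the cluster out turned the mitotic value of cells labelled WT from 0.14 to -1.48. The replication sums without it were -0.73 and -1.66.

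Within cluster 13 the mitotic genes were higher after IR and the replication genes were not. In cells labelled WT the 24 mitotic genes went from 1925 to 4588 CPM (log2 ratio 1.25, 1.21 to 1.3) and the replication genes from 1470 to 1278 CPM (-0.20, -0.27 to -0.13). All 26 mitotic genes lay above 0, and 16 of them rose, where 2.4% of 7872 genes with at least 50 UMIs in the cluster did, among them Ube2c (from 226 to 940 CPM, 2.05), Kif20a (2.04), Aurka (2.02), Ccnb1 (from 33.8 to 131 CPM, 1.95) and Cenpa (1.89). Mki67 was at 0.26. In cells labelled cKO the mitotic sum went from 2504 to 3461 CPM (0.47, 0.42 to 0.51) and the replication sum from 1456 to 1396 CPM (-0.06, -0.13 to 0.01), with Ube2c at 1.14 and Aurka at 1.08. Few cells carried these values: the 10 cells with most mitotic UMIs held 54.3% and 28.7% of the cluster's mitotic UMIs in control and 52.0% and 86.1% after IR, and 1 cell labelled cKO after IR held 903 of 4787. At 1500 UMIs per cell, which left out 0, 2, 23 and 0 shallower cells, 29.3% (21.2 to 38.5%) and 36.5% (30.6 to 42.9%) of the cells of this cluster had at least 2 mitotic UMIs in control, and 51.7% (38.2 to 65.0%) and 41.3% (27.0 to 56.8%) did after IR, intervals that overlap. Without thinning these shares were 54.3%, 64.9%, 56.8% and 58.7%.

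The macrophage-like cluster 11, marked by Fcrls, Ccl8 and Folr2, showed the opposite direction in cells labelled cKO. It had 173 and 433 cells in control and 47 and 75 after IR, at median depths of 10918, 11055, 4255 and 4411 UMIs. Its 24 mitotic genes were at 823 and 1152 CPM in control and at 680 and 95.2 CPM after IR, so that the cells labelled cKO after IR had the lowest level by far. The level of cells labelled WT after IR rested on few cells: all 197 mitotic UMIs came from 10 of 47 cells, and 1 cell held 121 of them. In control cells labelled WT the 10 highest cells held 67.9%, and in control cells labelled cKO 20.7%. The log2 ratio of IR over control was -0.27 (-0.50 to -0.06) in cells labelled WT and -3.59 (-4.05 to -3.17) in cells labelled cKO, and the replication genes gave -0.65 (-0.91 to -0.40) and -1.97 (-2.23 to -1.73). Mki67 was at 125, 200, 155 and 4.23 CPM, the last from 2 UMIs. Of 25 mitotic genes with at least 50 UMIs, 7 had 0 UMIs in cells labelled cKO after IR, Ccnb2, Cenpe, Spc24, Nusap1, Kif11, Hmmr and Kif20a, where the floor of 3 UMIs lies at 6.35 CPM. The minimum was set on both groups together and left out only Plk1, at 47 UMIs in control and 1 after IR. The share of all genes with 0 UMIs in these 75 cells is not given, so the count of 7 cannot be set against it. Ccnb2 was at 41.8 CPM in control cells labelled cKO, at least 6.58-fold higher than that floor. The median over these 25 genes was -2.47 with those 7 at that floor, and over 16 replication genes it was -2.42. At 1500 UMIs per cell, 20 of 173 (11.6%, 7.21 to 17.3%) and 111 of 430 (25.8%, 21.7 to 30.2%) of its cells had at least 2 mitotic UMIs in control, and 3 of 45 (6.67%, 1.40 to 18.3%) and 1 of 68 (1.47%, 0.037 to 7.92%) did after IR. The unthinned shares were 33.5%, 53.1%, 12.8% and 5.33%, at the unlike depths given above. By share of cells both labels were lower after IR, but the thinned intervals of cells labelled WT overlap. The unnamed cluster 2, with Cdh1, MHC class II and C1q genes, went from 46.9 to 30.3 CPM (-0.63, -0.94 to -0.32) in cells labelled WT and from 126 to 39.2 CPM (-1.68, -1.90 to -1.47) in cells labelled cKO.

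**Figure D5:**
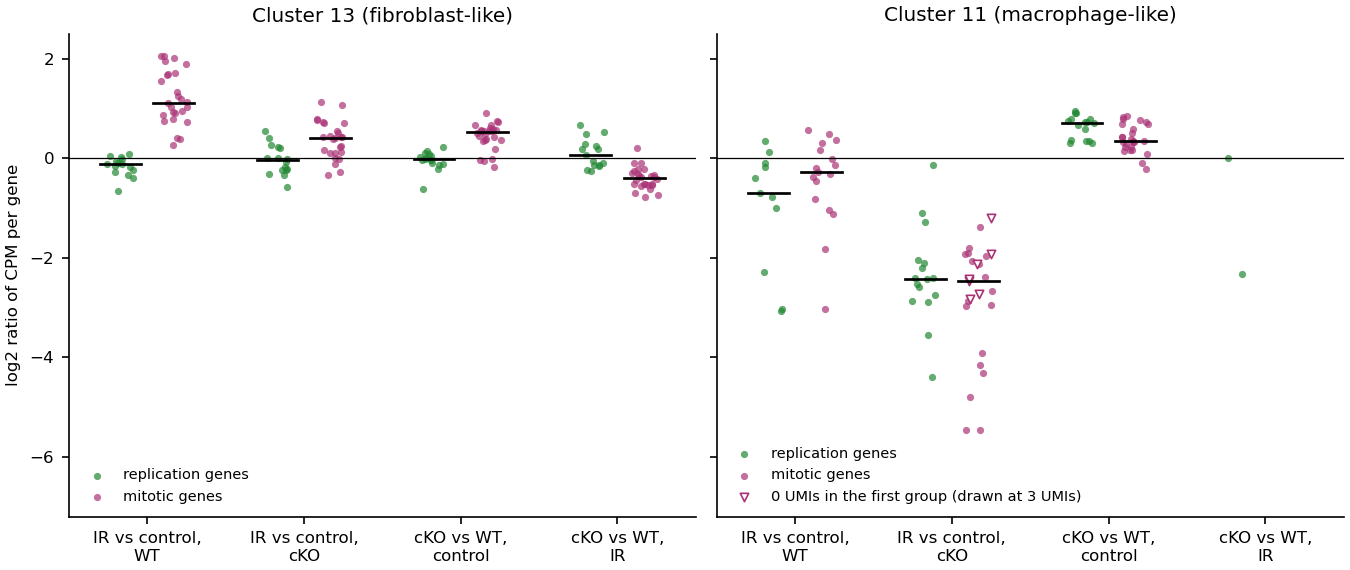
Log2 ratio of CPM per gene within the fibroblast-like cluster 13 (left) and the macrophage-like cluster 11 (right) of the tumor libraries, for members with at least 50 UMIs over both groups; bars are medians and open triangles are genes with 0 UMIs in the first group, drawn at 3 UMIs. In cluster 13 the mitotic medians after IR are 1.12 and 0.41 with replication medians near 0, and in cluster 11 both sets lie below -2 at the median in cells labelled cKO.

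Between the labels, the tumor control library showed more cell-cycle transcripts in cells labelled cKO across both sets. Of 45 members 27 were higher, where 3.3% of 10671 genes were, and 0 were lower, where 1.31% were. All 45 lay above 0. The mitotic genes with the largest ratios were Cdca3 (1.52, 1.32 to 1.72), Kif20a (1.51, 1.15 to 1.91), Ccnb2 (1.5, 1.3 to 1.70), Ccnb1 (1.46, 1.21 to 1.73) and Cenpf (1.45, 1.32 to 1.59), and 20 of 26 passed the limit. The replication genes with the largest were Mcm2 (1.15, 0.94 to 1.37), Tk1 (1.14, 0.98 to 1.32), Pclaf (1.10, 0.99 to 1.20), Mcm5 (1.04, 0.89 to 1.20) and Mcm7 (1.01, 0.85 to 1.18), and these 5 of 16 passed. The sums were 0.77 (0.74 to 0.81) for replication and 1.24 (1.21 to 1.28) for the 24 mitotic genes, beside a median over all genes of 0.11, and 0.95 and 1.52 without cluster 13. At an equal cluster mix they were 0.18 and 0.45. Within cluster 11 the sums were 0.58 (0.50 to 0.66) and 0.48 (0.41 to 0.56), and within cluster 13 -0.01 (-0.06 to 0.03) and 0.38 (0.34 to 0.42). In this library 1503 of 2496 cells labelled WT had a WT hashtag count under 4 times that of the other hashtag. Those cells held 376 CPM of the 24 mitotic genes and the other 993 held 554 CPM, both below the 1081 CPM of cells labelled cKO.

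After IR the order of the labels in the tumor was the other way for the summed mitotic genes. Few cells carried these sums: 10 cells held 46.7% of 10188 UMIs of the 24 mitotic genes in cells labelled WT. In cells labelled cKO, 10 cells held 70.6% of 5835. By share of cells the labels were at 1.65% and 1.06%, with intervals that overlap. Of 43 measured members 0 were higher in cells labelled cKO, where 0.189% of 10043 genes were, and 15 were lower, where 0.886% were. All 15 were mitotic genes. The largest were Cenpe (-1.48, -1.74 to -1.24), Kif11 (-1.48, -1.91 to -1.09), Kif20a (-1.47, -1.93 to -1.05), Ccna2, which encodes cyclin A (-1.33, -1.62 to -1.05), and Cenpf (-1.3, -1.46 to -1.14). The replication genes were at -0.94 for Pclaf, -0.89 for Rrm2, -0.83 for Tk1, 0.44 for Mcm2 and -0.42 for Tyms, with a sum of -0.21 (-0.26 to -0.16). Without cluster 13 no member passed the limit: 0 of 23 measured members were higher and 0 were lower, where 0.201% and 0.138% of genes were, and the sum of the 24 mitotic genes went from -1.10 (-1.14 to -1.05) to -0.34. The tumor comparisons between labels share their groups with the comparisons between IR and control, so they are not independent of them.

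The wider list of 110 cell-cycle genes put the members in context. In the tumor, 76 of 106 measured genes of this list fell in cells labelled cKO after IR, beside 16.8% of all genes, and 10 of 100 in cells labelled WT, beside 3.2%, with medians of -1.64 and -0.34. All 26 genes for kinesins, kinetochore, condensin and cytokinesis fell in cells labelled cKO, and the largest falls of the list were in the condensin subunit Ncapg (-3.11), the repressor E2f7 (-2.97) and the mitotic kinase Pbk (-2.94). In cells labelled WT they were in the primase Prim1 (-1.57), Uhrf1 (-1.53), which maintains DNA methylation at forks, and the polymerase subunit Pola1 (-1.49). Of the list's origin licensing and fork proteins, 24 of 28 measured fell in cells labelled cKO and 6 of 25 in cells labelled WT. In tumor control 30 of 106 were higher in cells labelled cKO, beside 3.3% of all genes, led by Cdc20 (1.80), Cdc25c (1.67) and Nek2 (1.60), and after IR 10 of 94 were lower, beside 0.886% of all genes, led by Kif4 (-1.75), Ckap2 (-1.44) and Nuf2 (-1.41). In blood after IR, 1 of 64 and 2 of 58 measured genes rose, beside 0.349% and 0.422% of all genes: Cenpm, a centromere gene, at 1.42 and 1.68, and Knstrn, a kinetochore gene, at 2.08 in cells labelled cKO and 0.98 in cells labelled WT. The third largest were Rfc4 (0.64) and Pold1 (0.60). Between the labels in blood 0 of 61 genes passed the limit in control, with Lmnb1 at -0.95, Ccnd1 at -0.87 and Cdkn1a at -0.81, and 0 of 62 after IR, with Knstrn at 0.96, Espl1 at 0.65 and Cdkn1a at -0.52.

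The inhibitors of cyclin-dependent kinases did not move as 1 group. Cdkn1a, the p53 target p21, was at 913 and 870 CPM in tumor control and at 1394 and 1459 CPM in tumor IR, log2 ratios of 0.61 (0.58 to 0.64) and 0.75 (0.72 to 0.77). Cdkn2c, an inhibitor of Cdk4 and Cdk6, fell from 13.3 to 5.57 CPM (-1.25, -1.59 to -0.93) and from 16.1 to 3.42 CPM (-2.22, -2.59 to -1.89). So p21 was above and Cdkn2c below its control in both labels. Cdkn1b was at -0.11 and 0.22 and Cdkn2d at 0.44 and 0.13 in the same tumor comparisons, and the other 3 inhibitors of the list were not measured. In blood IR, Cdkn1a was at -0.12 and 0.17, Cdkn1b at -0.11 and -0.18, Cdkn2c at 0.07 and 0.28 and Cdkn2d at -0.08 and -0.50.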

How the data were processed

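Hashtagged single-cell RNA-seq libraries (CITE-seq) were analysed for sorted blood and tumor cells. The deposited matrices hold raw UMI counts of 32285 genes and 2 hashtags per barcode, made by the authors with Cell Ranger 6.0.1 on mm10 per the labels (the file headers name another version) and analysed by them with Seurat 4.0.6. Barcodes were called as cells with at least 500 UMIs, at least 200 genes, at most 25% mitochondrial UMIs and at least 20 hashtag UMIs, by a total-UMI threshold and a test against the ambient profile. Cells were labelled WT when hashtag B0301 was at least B0302, and cKO when B0302 was at least 4 times B0301. Scrublet called 0 to 3 doublets per library at its own threshold, so the 6% of cells with the highest scores were removed. Clusters came from Seurat 5.3.0 (2000 variable genes less 121, 40 components, resolution 0.8), with all members and the wider list left out, and were named from marker lists. Counts were summed per group, 1 UMI scaled to depth was added, and log2 ratios of CPM were given exact conditional binomial 95% intervals; levels have exact Poisson intervals.

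All 45 members were counted in each comparison. A member was measured with at least 100 UMIs over both groups (at least 50 within a cluster) and past the limit at an absolute log2 ratio of at least 1. The text names per comparison the 5 measured replication and the 5 measured mitotic members with the largest absolute ratio. It also names Mki67, Top2a, Ccnb1, Mcm5, Pcna and Rrm2 in every group, Stmn1, Cks1b and Mybl2, the 3 largest of the wider list and the kinase inhibitors. Members named within clusters and the granule genes Elane, Prtn3, Mpo and Camp were chosen after their values were seen. Members and lists were chosen with earlier results of these data known. edgeR 4.0.16 supplied TMM factors for 1 alternative.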

Additional observations from a re-analysis of the deposited data

Results flagged for a closer look

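Pairs of log2 ratios with opposite signs under the same contrast are listed here. With 1 pool per group none of these differences was tested. IR was accompanied by a replication log2 ratio of 0.2992 in blood and -0.7892 in tumor in cells labelled WT, and of 0.2216 and -1.769 in cells labelled cKO. For the mitotic genes, cells labelled cKO gave 0.8075 in blood and -1.873 in tumor. In tumor the mitotic log2 ratio of IR over control was 0.152 in cells labelled WT and -1.873 in cells labelled cKO, and it was below 0 in both labels without the fibroblast-like cluster. Cells labelled cKO against WT gave replication values of 0.7716 in tumor control and -0.2081 in tumor IR, and mitotic values of 1.094 and -0.9315. The replication value in tumor IR was 0.024 without the fibroblast-like cluster and 0.057 at the WT cluster mix, so that its sign was not opposite there. In blood the mitotic values of this contrast were -0.6074 in control and 0.07859 after IR, both over 26 genes with Cks2 and Cenpa included. Over the 24 genes without these they were 0.075 and 0.68, both above 0.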

How the results depend on the processing

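Shares of cells below are over all 26 mitotic genes unless stated, in the order blood control, blood IR, tumor control, tumor IR and WT before cKO, and at 1500 UMIs and at least 2 mitotic UMIs they were 10.4%, 5.32%, 10.2%, 8.83%, 6%, 14.7%, 4.14% and 3.19%. The log2 ratios of the 16 replication and 26 mitotic genes were recomputed in 160 combinations of comparison and alternative, of which 98 moved by less than their counting interval, 57 moved by more and 5 changed sign. Of these alternatives, leaving out Pcna, leaving out Cks2 and Cenpa, holding the cluster mix, and the member counts without the fibroblast-like cluster were chosen after seeing the data. The 5 that changed sign were the mitotic genes for IR in WT tumor without the fibroblast-like cluster, for cKO over WT in blood control without Cks2 and Cenpa and for IR in cKO tumor at the cluster mix of control, and the replication genes for cKO over WT in tumor IR without the fibroblast-like cluster and at the WT cluster mix. For the alternatives that only drop genes or clusters, those genes or clusters carry the difference, and for all others the cause was not tested. 

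Without Pcna, the replication log2 ratio was 0.54 for IR in WT blood, 0.47 for IR in cKO blood, -0.88 for IR in WT tumor, -2.10 for IR in cKO tumor, 0.91 for cKO over WT in control tumor and -0.31 for cKO over WT in irradiated tumor. With the median of the members' ratios in place of the sum, the replication log2 ratio was -0.96 for IR in WT tumor, -2.13 for IR in cKO tumor, 0.95 for cKO over WT in control tumor and -0.32 for cKO over WT in irradiated tumor. The mitotic log2 ratio was 1.49 for IR in WT blood, 2.14 for IR in cKO blood, 0.089 for IR in WT tumor, -2.16 for IR in cKO tumor, -0.26 for cKO over WT in blood control, 0.65 for cKO over WT in blood IR, 1.23 for cKO over WT in control tumor and -1.05 for cKO over WT in irradiated tumor under this setting. Without Cks2 and Cenpa, the mitotic log2 ratio was 1.51 for IR in WT blood, 2.11 for IR in cKO blood, -2.20 for IR in cKO tumor, 0.075 for cKO over WT in blood control, 0.68 for cKO over WT in blood IR, 1.24 for cKO over WT in control tumor and -1.10 for cKO over WT in irradiated tumor. The 24-gene mitotic shares were 0.255%, 0.199%, 0.734%, 1.43%, 3.02%, 12%, 1.65% and 1.06% under this setting. At the cluster mix of the comparison group, the replication log2 ratio was 0.094 for IR in cKO blood, -0.26 for IR in WT tumor, -0.50 for IR in cKO tumor, 0.072 for cKO over WT in blood IR, 0.18 for cKO over WT in control tumor and 0.057 for cKO over WT in irradiated tumor. The mitotic log2 ratio was 0.56 for IR in cKO blood, 0.90 for IR in WT tumor, 0.054 for IR in cKO tumor, -0.39 for cKO over WT in blood control, 0.39 for cKO over WT in control tumor and -0.37 for cKO over WT in irradiated tumor under this setting. With a hashtag rule of 4 times in both directions, the replication log2 ratio was -0.85 for IR in WT tumor, 0.63 for cKO over WT in control tumor and -0.29 for cKO over WT in irradiated tumor. The mitotic log2 ratio was 0.053 for IR in WT tumor, 0.89 for cKO over WT in control tumor and -1.03 for cKO over WT in irradiated tumor under this setting. Without the fibroblast-like cluster, the replication log2 ratio was -0.73 for IR in WT tumor, -1.66 for IR in cKO tumor, 0.95 for cKO over WT in control tumor and 0.024 for cKO over WT in irradiated tumor. The mitotic log2 ratio was -0.77 for IR in WT tumor, -2.07 for IR in cKO tumor, 1.03 for cKO over WT in control tumor and -0.27 for cKO over WT in irradiated tumor under this setting. The number of members past the limit was 20 for IR in WT tumor and 0 for cKO over WT in irradiated tumor under this setting. With TMM factors, the replication log2 ratio was -0.64 for IR in WT tumor, -1.56 for IR in cKO tumor and 0.71 for cKO over WT in control tumor. The mitotic log2 ratio was 0.31 for IR in WT tumor, -1.67 for IR in cKO tumor and 1.03 for cKO over WT in control tumor under this setting. The number of members past the limit was 3 for IR in WT tumor under this setting. With no doublets removed, the mitotic log2 ratio was 0.11 for IR in WT tumor, 1.13 for cKO over WT in control tumor and -0.87 for cKO over WT in irradiated tumor. Without barcodes kept in more than 1 library, the mitotic log2 ratio was 0.19 for IR in WT tumor and 1.14 for cKO over WT in control tumor. With at least 1 UMI, the number of members past the limit was 23 for IR in WT blood, 20 for IR in cKO blood, 12 for cKO over WT in blood control and 8 for cKO over WT in blood IR. The 26-gene mitotic shares were 30.5%, 20.0%, 29.1%, 25.4%, 22.8%, 30.2%, 18.1% and 17% under this setting. With at least 50 UMIs, the number of members past the limit was 2 for cKO over WT in blood control. The share of all genes past the limit is not given for either of these minimums or for TMM factors. At a minimum of 1 UMI a member can pass on counting error alone, so these counts cannot be read as results about the members. With cells thinned to 1000 UMIs, the 26-gene mitotic shares were 6.01%, 3.68%, 5.65%, 5.31%, 3.85%, 11%, 2.94% and 2.2%. With at least 3 mitotic UMIs needed, the 26-gene mitotic shares were 3.98%, 2.02%, 3.7%, 3.56%, 3.28%, 10.5%, 2.1% and 1.24%. Calling cells by total UMIs alone and a limit of 10% mitochondrial UMIs moved none of the 16 set results by more than its interval. TMM factors were 1.04 and 1.09 for the tumor control groups and 0.939 and 0.947 after IR, so that this scaling raised every tumor IR over control ratio by a fixed amount per label. No paired analysis was possible because each group was 1 pool of mice and no result comes from a test, and no replicate could be left out. In the blood comparisons 17 to 29 of the 45 members had under 100 UMIs over both groups and were not counted as risen or fallen, although a difference as large as that of Birc5 in WT blood, at 4 and 95 UMIs, still showed at this depth.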

Other observations

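The T cell-like cluster 17 held 159 cells, of which 18 of 155 (11.6%, 7.03 to 17.7%) had at least 2 UMIs of the 24 mitotic genes and 22 (14.2%, 9.11 to 20.7%) had at least 2 of the 15 replication genes after thinning to 1500 UMIs, and 13 had both. These are cells outside the sort gate's lineage with cell-cycle transcripts of their own. The dendritic cell-like cluster 16 held 100 CPM of the 24 mitotic genes over 247 cells, and the other dendritic cell-like clusters 14 and 18 held 59.9 and 38.9 CPM. The unnamed cluster 8, whose median of 1403 UMIs left 546 of 1161 cells after thinning, held 203 CPM, and 26 of those cells (4.76%, 3.13 to 6.90%) passed for the mitotic genes.

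Elane, the elastase gene of granulocyte precursors, had 466 UMIs in blood IR cells labelled WT, and 10 cells held 92.3% of them. The sum of the mitotic genes in the same group was more even, with 24.3% in the 10 highest cells.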
